A study of Mus musculus with 6 samples.

Results

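The 46 genes described here encode the machinery of mitosis and the spindle, and they were taken by symbol from the 41457 genes counted in RNA-seq libraries of CD4-CD8- double negative (DN) thymocytes of the mouse. All 46 were found in the count tables, and all 46 were among the 12224 genes with enough reads to be tested. The list runs from CDK1 and its cyclins through the spindle checkpoint, the anaphase machinery, the kinetochore and the kinesins to cytokinesis. Each gene was counted with 161 to 14913 unique gene reads per library, so none rested on a handful of reads.

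The comparison was between DN thymocytes of BirA mice and of Nc1Bio mice, with 3 libraries in each group. BirA mice express the Escherichia coli biotin ligase BirA from the Rosa26 locus, and the labels give their genotype as WT. Nc1Bio mice express BirA as well and also carry a single copy of a bacterial artificial chromosome (BAC) with the whole murine Nfatc1 locus, so that a biotin-tagged NFATc1 is made in addition to the endogenous protein. The extra copy is driven by the regulatory elements that lie on the BAC, in whatever cells use them, and the counts do not separate reads of the extra copy from those of the endogenous gene. The study describes its mice as C57/B6 animals of 4 to 6 weeks, matched for age and sex. The cells were sequenced without stimulation, and DN cells were obtained by magnetic depletion of CD4+ and CD8+ cells and not by a sort, so other CD4-CD8- cells of the thymus can be present. Whether the 3 libraries of a group came from separate animals is not stated. All p-values below therefore measure the spread between these libraries, which may be technical.

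Mitosis is driven by the kinase CDK1 bound to A-type and B-type cyclins. The spindle checkpoint holds chromosomes at metaphase until every kinetochore is attached to microtubules. CDC20 then activates the anaphase-promoting complex (APC/C), which marks securin and the B-type cyclins for destruction, so that separase can cut cohesin and the sister chromatids separate. Genes of this programme are transcribed mainly in the G2 and M phases. Their promoters often hold a cell cycle genes homology region (CHR), the element bound by the MuvB core of the DREAM and B-MYB complexes, together with CCAAT boxes, which bind NF-Y. In the thymus, DN cells proliferate as early progenitors and again in a burst once a functional TCR β chain has been made.

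The reference promoters of the members were searched for these letters, because the motifs are a shared feature that did not enter the choice of genes. RefSeq windows of the GRCm38.p6 assembly, from 250 bases before to 50 bases after the transcript start, were matched for 39 of the 46 genes. Ccna2, Cdc25c, Aurkb, Incenp, Spc24, Tpx2 and Kif20a had no matching window. The RefSeq start lay 3867 bases from the gene start of the count tables for Kif2c and 2394 bases for Cdca8. For Bub3, Mad2l1, Pttg1 and Kif4 the distance was 148 to 328 bases. Whether these windows hold the promoter in use was not tested. The search used TTTGAA or TTCGAA on either strand for the CHR and CCAAT on either strand for the CCAAT box. Other spellings were not searched, so a window without these letters is not shown to lack the element. The 150 bases before the RefSeq start are shown for 5 genes with low p-values in the comparison, Cdc20, Espl1, Racgap1, Aurka and Ccnb2, and for Cdk1 and Top2a, the central kinase and the member with the most reads. These 5 are not the genes of lowest p: Ube2c, Cenpa and Cdca8 had lower p-values than Espl1 and Ccnb2 and are not shown. Capitals mark CHR and CCAAT letters, read in the direction of the gene, so that a motif on the opposite strand appears as TTCAAA or ATTGG.
Cdc20, chr4:118437344-118437493, minus strand: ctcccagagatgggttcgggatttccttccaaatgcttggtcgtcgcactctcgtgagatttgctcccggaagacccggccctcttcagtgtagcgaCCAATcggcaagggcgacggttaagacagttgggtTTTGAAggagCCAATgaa
Espl1, chr15:102296143-102296292, plus strand: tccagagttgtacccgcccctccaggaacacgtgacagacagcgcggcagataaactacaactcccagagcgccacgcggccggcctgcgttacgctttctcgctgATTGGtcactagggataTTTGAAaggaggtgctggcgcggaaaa
Racgap1, chr15:99651657-99651806, minus strand: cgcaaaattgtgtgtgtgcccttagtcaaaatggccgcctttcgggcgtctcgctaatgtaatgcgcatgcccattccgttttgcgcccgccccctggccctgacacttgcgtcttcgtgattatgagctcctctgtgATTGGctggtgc
Aurka, chr2:172370571-172370720, minus strand: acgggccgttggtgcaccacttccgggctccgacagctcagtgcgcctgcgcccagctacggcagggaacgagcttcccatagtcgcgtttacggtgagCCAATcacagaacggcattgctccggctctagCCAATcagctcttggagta
Ccnb2, chr9:70421555-70421704, minus strand: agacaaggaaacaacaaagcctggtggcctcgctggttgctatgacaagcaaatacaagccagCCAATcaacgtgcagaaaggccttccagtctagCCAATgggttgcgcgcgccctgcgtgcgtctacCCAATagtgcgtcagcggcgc
Cdk1, chr10:69352913-69353062, minus strand: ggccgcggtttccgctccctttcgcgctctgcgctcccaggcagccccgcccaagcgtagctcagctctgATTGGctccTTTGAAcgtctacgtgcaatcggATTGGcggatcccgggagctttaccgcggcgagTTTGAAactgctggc
Top2a, chr11:99024190-99024339, minus strand: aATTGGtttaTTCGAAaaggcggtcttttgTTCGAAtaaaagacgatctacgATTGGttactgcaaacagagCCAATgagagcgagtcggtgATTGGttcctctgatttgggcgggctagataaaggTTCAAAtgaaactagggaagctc

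In these stretches, Cdc20, Espl1, Cdk1 and Top2a hold CHR letters close to the start. The first base of the match lies 18 bases before the start in Cdc20, 27 in Espl1, 15 in Cdk1 and 23 in Top2a. In Ccnb2, Racgap1 and Aurka no CHR letters fall in the stretch shown. Their nearest matches begin after the start, at positions 4, 5 and 32 counted from a start of 0. CCAAT letters are present in all 7 stretches, with 3 in Ccnb2 and 4 in Top2a.

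Over the full 300-base windows, 31 of 39 members (79.5%) held CHR letters, against 21.7% of the 27025 genes with a window. CCAAT letters were in 31 of 39 members (79.5%), against 41.1% of all genes, and both motifs were in 28 members (71.8%), against 8.61%. In the 150 bases before the start alone, CHR letters were in 14 of 39 members (35.9%, against 11.2% of all genes) and both motifs in 13 (33.3%, against 2.85%). CCAAT letters there were in 31 (79.5%, against 27.7%). Counted in 1 window for each gene, since the 3 genes with 2 windows repeat the same matches, 30 of 42 CHR matches began between 50 bases before and 49 bases after the start. Of 70 CCAAT matches, 67 began before the start, 48 of them within 100 bases, and their median first base was at -57.5 against -10 for the CHR. Only 1 CHR match shared a base with a CCAAT match. Mad2l1, Pttg1, Birc5, Nuf2 and Kif18a held neither set of letters in their windows. A match describes the sequence, and no binding was measured here.

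**Figure D1:**
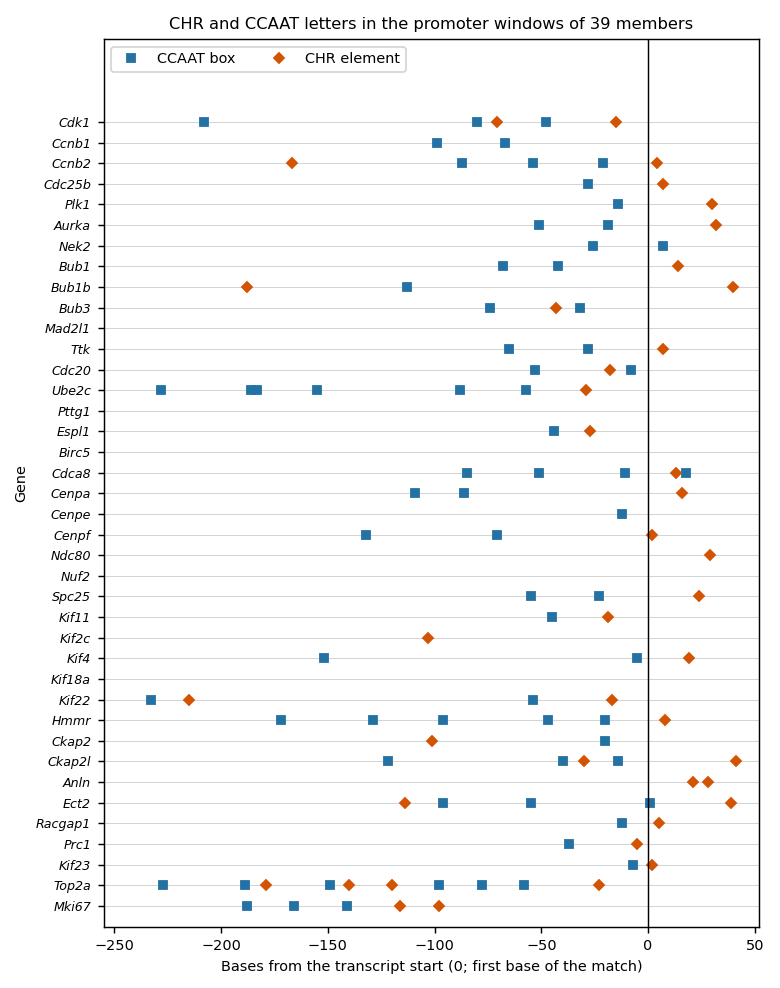
Position of CHR letters (diamonds) and CCAAT letters (squares) in the reference promoter windows of 39 members, in bases from the RefSeq transcript start (0); where a gene has several windows, the first is drawn. CCAAT letters lie mostly before the start and CHR letters around it, and 5 genes hold neither.

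Expression was measured as unique gene reads in CPM, that is, reads assigned to a single gene per 1000000 reads of a library size normalised by the TMM method. Log2 fold changes of Nc1Bio over BirA came from the quasi-likelihood test of edgeR, and p-values were adjusted by the Benjamini-Hochberg method over all 12224 genes. The libraries held 11845952 to 15393763 unique gene reads. Nfatc1, the gene carried by the BAC, had 152, 128 and 96.8 CPM in the BirA libraries and 573, 597 and 551 CPM in the Nc1Bio libraries, which is 2.19 on the log2 scale, with an adjusted p of 0.0141 by edgeR. No other tested gene passed the adjusted threshold of 0.05. The call of Nfatc1 was lost when BirA replicate 2 or any single Nc1Bio library was left out (edgeR adjusted p of 0.0618 to 0.141), while its log2 fold change stayed between 2.03 and 2.35 in all 6 fits with a library left out. T lineage markers were expressed in every library, but the preparations also held markers of other cells to differing extents. Summed over 9 granulocyte markers, the libraries ranged from 379 to 9053 CPM, and over 10 erythroid markers from 17802 to 97633 CPM. Hbb-bs, a β-globin gene, alone took 5.92% of the reads of Nc1Bio replicate 3 and 4.57% of those of BirA replicate 1.

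All 46 mitosis and spindle genes had a fitted level that was higher in Nc1Bio than in BirA thymocytes, but by a small margin, and none passed the adjusted threshold. The median log2 fold change was 0.21, with a range from 0.03 for Ckap2 to 0.45 for Cenpe, and the median over all tested genes was -0.0026. Of all tested genes, 6061 (49.6%) had a fold change above 0. Summed over the 46 genes, expression was 5183, 5909 and 6296 CPM in BirA replicates 1 to 3 and 6790, 6744 and 6944 CPM in Nc1Bio replicates 1 to 3. The lowest Nc1Bio library was thus above the highest BirA library. The means were 5796 ± 565 CPM in BirA and 6826 ± 104 CPM in Nc1Bio (SD, n = 3), a ratio of 1.18. Top2a, with the most reads of the list, did not decide this value, and the ratio was also 1.18 without it. In bulk RNA, a larger share of cells in the cell cycle and more RNA of these genes per cell cannot be told apart.

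**Figure D2:**
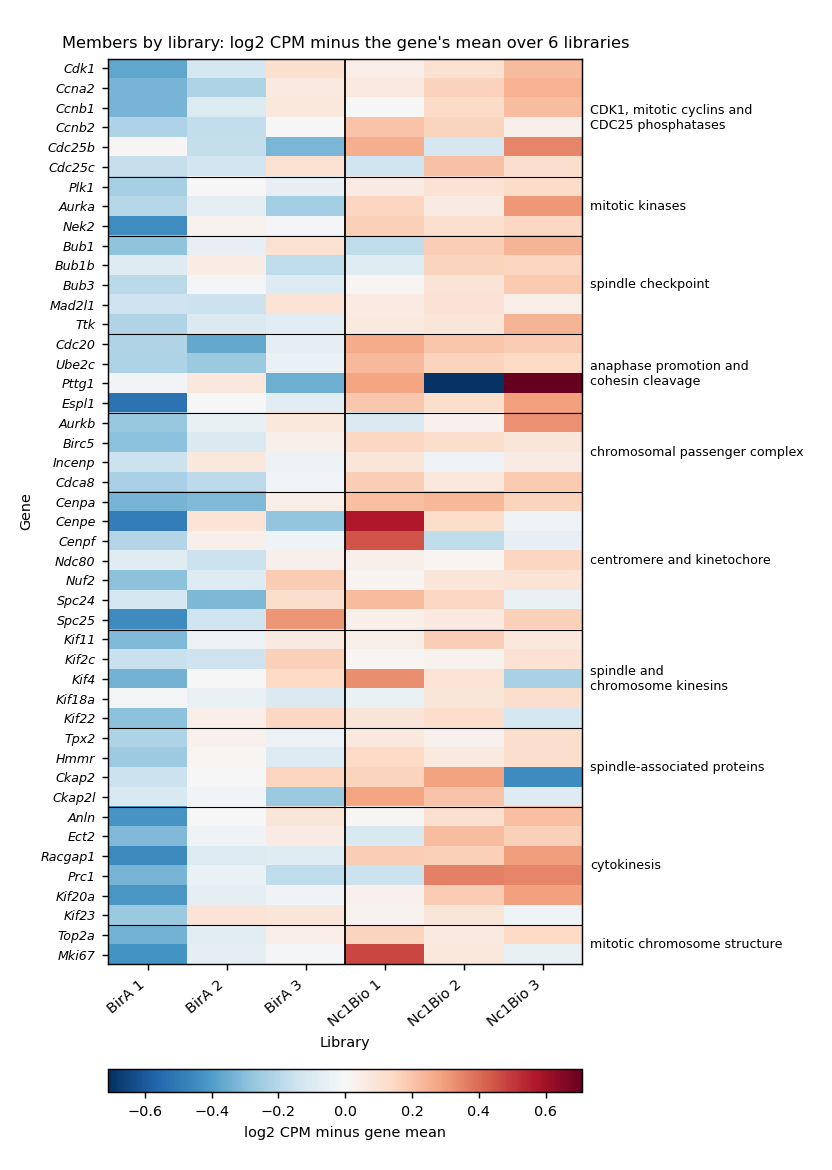
log2 CPM of each of the 46 genes (rows, grouped by role) in each of the 6 libraries (columns), minus the mean of the gene over the 6 libraries; blue is below and red above that mean. BirA replicate 1 is the bluest column, with the lowest value of the row for 34 genes, while the Nc1Bio columns are mostly red.

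By edgeR, 0 of 46 members were called at an adjusted p under 0.05, where the share called over all genes was 0.00818%. At an unadjusted p under 0.05, 10 members (21.7%) were higher in Nc1Bio against 4.31% of all tested genes, and 0 members were lower against 7.66%. In 17 of 46 members (37.0%) all 3 Nc1Bio libraries were above all 3 BirA libraries, against 8.45% of all tested genes. In 0 members were they all below, against 9.98%. With DESeq2, the tool named in the methods of the study, 1 member was called, Cdc20 (adjusted p = 0.029), against 0.32% of all genes called higher by that tool. At the stricter threshold of the study, an adjusted p under 0.01 and a log2 fold change over 0.5, DESeq2 called 0 members, against 0.122% of all genes. With limma-voom 0 members were called, and 12 had an unadjusted p under 0.05, against 4.52% of all genes.

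**Figure D3:**
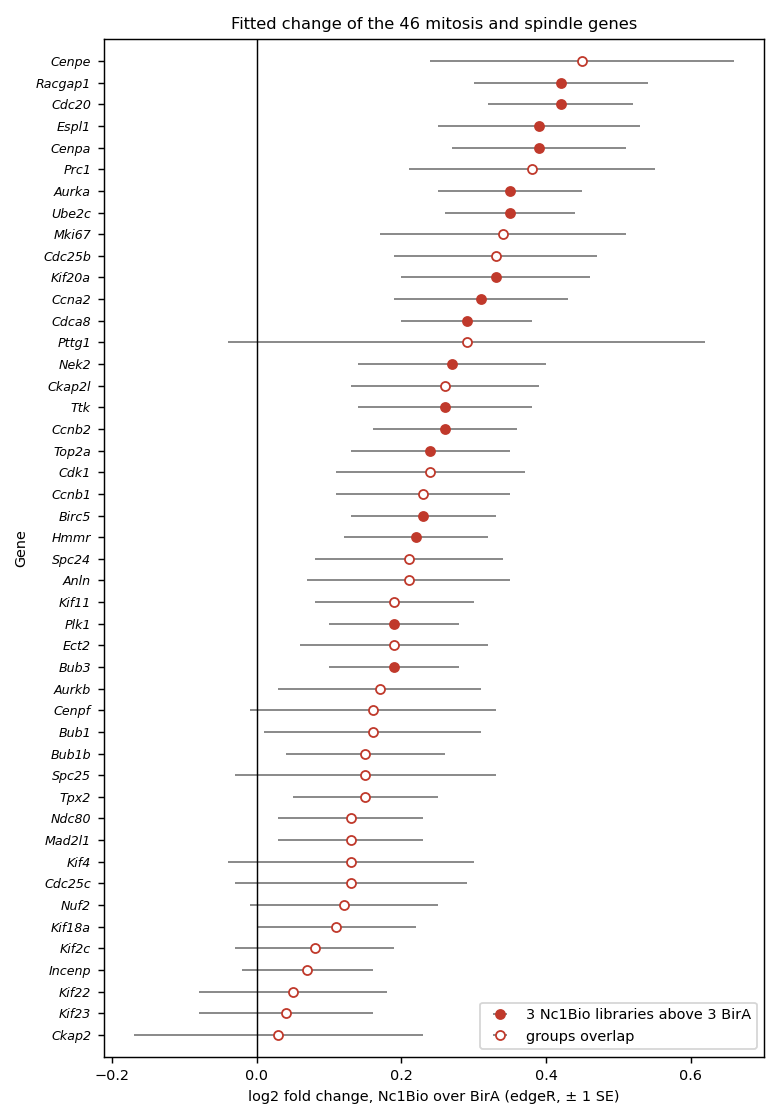
Fitted log2 fold change of each of the 46 genes, Nc1Bio over BirA, from edgeR, with bars of 1 SE; filled points mark the 17 genes whose 3 Nc1Bio libraries all lie above the 3 BirA libraries. All points lie above 0, from 0.03 (Ckap2) to 0.45 (Cenpe), and the width of the bars is largest for Pttg1.

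The size of the group difference depended on BirA replicate 1. This library had the lowest level of the 6 for 34 of the 46 members (73.9%), whereas it was the lowest for 24.3% of all tested genes. It was the highest for none of the members. The same library had the highest share of mitochondrial reads, 7.07% against 3.72% to 5.24% in the others, and the highest intron share over all genes, 2.15%. It was also the highest of the 6 in the summed markers of B cells (2027 CPM), NK and innate lymphoid cells (936 CPM), mature T cells (1190.2 CPM) and macrophages and dendritic cells (247 CPM), with the NK and T cell gene Il2rb at 264 CPM against 5.54 to 64.7 CPM and the B cell receptor gene Cd79a at 155 CPM against 7.81 to 45.9 CPM. The part of these values in its low levels of the members was not tested. Without it, the median log2 fold change of the members was 0.14, the log2 ratio of the sums was 0.16 in place of 0.24, and 8 members had an unadjusted p under 0.05 against 2.57% of all genes. Of the 10 members with such a p in all libraries, 7 were among these 8, and Ccna2, Ccnb2 and Kif20a were not. Of the 46 members, 42 were still higher in Nc1Bio. For 25 of the 46 the log2 fold change was smaller by over 1.5 times or turned, against 2 to 6 members for each of the other libraries. With BirA replicate 1 set aside, the Nc1Bio libraries lay above the remaining BirA libraries for 18 members, against 11.8% of all genes. Setting a library aside can only keep or raise such a count, which was 17 with all libraries (8.45% of all genes). The count of 18 therefore cannot show whether the separation depended on BirA replicate 1. BirA replicate 3 was the highest BirA library in the sum, and without it 18 members had an unadjusted p under 0.05, against 6.69% of all genes. The BirA libraries varied more among themselves than the Nc1Bio libraries did: the ratio of the highest to the lowest library of a group had a median of 1.26 over the members in BirA and 1.13 in Nc1Bio, beside 1.32 and 1.29 over all genes.

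The smallest p-values of the list were those of Cdc20 and Ube2c, which act in triggering anaphase. Of the 4 members of this role, Cdc20, Ube2c and Espl1 had an unadjusted p under 0.05 and groups that did not overlap, and the median log2 fold change of the role was 0.37. CDC20 is the co-activator that directs the APC/C to its first mitotic substrates. The Cdc20 gene (chromosome 4, 118432901 to 118437352, minus strand, GRCm38) had 159, 144 and 177 CPM in BirA and 222, 211 and 209 CPM in Nc1Bio. Its means were 160 ± 16.5 and 214 ± 6.90 CPM (SD, n = 3), the groups did not overlap, and the means lay further apart than the SD of either group. The log2 fold change of 0.42 ± 0.10 (SE) came with an unadjusted p of 0.00324 and an adjusted p of 0.215 by edgeR, and it stayed between 0.35 and 0.50 when each library was left out in turn.

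UBE2C is the ubiquitin-conjugating enzyme that works with the APC/C. Ube2c (chromosome 2, 164769898 to 164778822, plus strand) had 160, 155 and 179 CPM in BirA and 218, 207 and 205 CPM in Nc1Bio. Its fold change on the log2 scale was 0.35 ± 0.09 (SE), and edgeR gave an adjusted p of 0.258. All Nc1Bio libraries were above all BirA libraries. Espl1 encodes separase, the protease that cuts cohesin. It had 83.5, 120 and 114 CPM in BirA and 138, 131 and 147 CPM in Nc1Bio, a log2 fold change of 0.39 (SE 0.14) and an adjusted p of 0.369 by edgeR. BirA replicate 1 was far below the other BirA libraries for Espl1, and without it the log2 fold change was 0.24. Pttg1, which encodes securin, the inhibitor of separase, was expressed at a low level and differed strongly within groups. It had 19.6, 20.9 and 15.6 CPM in BirA and 24.1, 12.2 and 32.5 CPM in Nc1Bio, so that the highest and the lowest library both belonged to Nc1Bio.

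**Figure D4:**
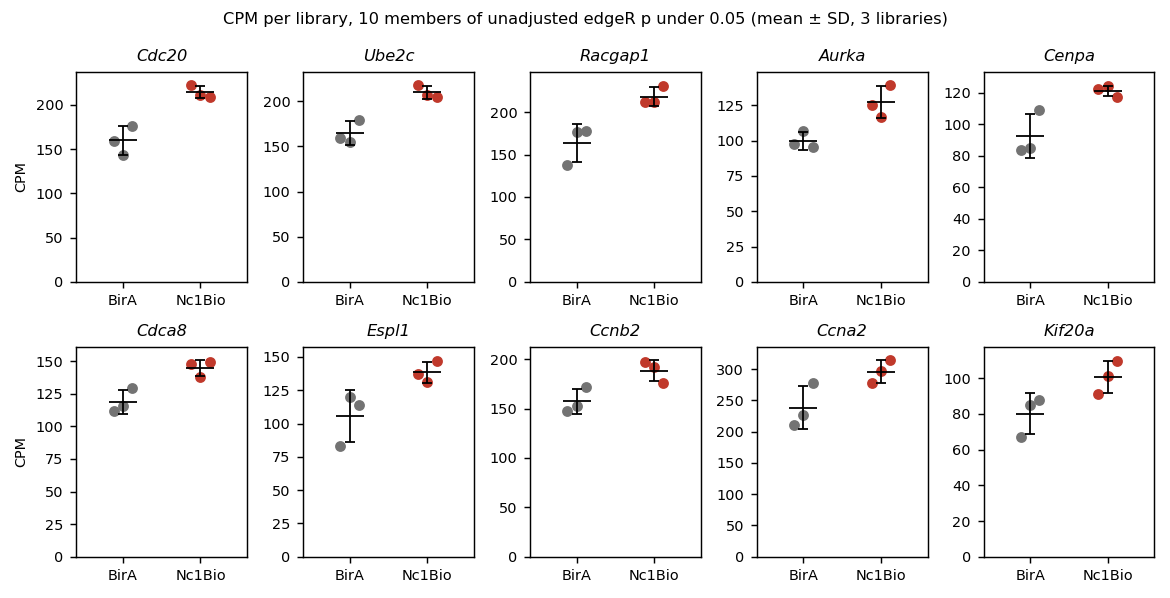
CPM of the 10 members with an unadjusted edgeR p under 0.05 in each library (points), with the mean and SD of the 3 libraries of each group; each axis starts at 0. In all 10 genes the Nc1Bio points lie above the BirA points, by the smallest margin in Ccna2.

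CDK1, its cyclins and the CDC25 phosphatases that activate it had a median log2 fold change of 0.25 over 6 genes. The mitotic cyclin genes were expressed at 148 to 314 CPM. Ccnb2 (cyclin B2) had 148, 152 and 172 CPM in BirA and 197, 192 and 176 CPM in Nc1Bio, with a log2 fold change of 0.26 (SE 0.10) and an adjusted p of 0.377 by edgeR. Ccna2 (cyclin A2) had 211, 227 and 278 CPM in BirA and 278, 297 and 314 CPM in Nc1Bio, a log2 fold change of 0.31 (SE 0.12) and an adjusted p of 0.388 by edgeR. The highest BirA and the lowest Nc1Bio library of Ccna2 differed by less than 1 CPM, so that the groups barely parted. Unique reads were 78.9% of all reads assigned to Ccna2, which overlaps Exosc9. Cdk1 itself had 133, 158 and 186 CPM in BirA and 178, 185 and 201 CPM in Nc1Bio, and the groups overlapped (log2 fold change 0.24 ± 0.13, SE, and 0.13 without BirA replicate 1). Ccnb1 (0.23), Cdc25b (0.33) and Cdc25c (0.13) overlapped between the groups as well.

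Among the mitotic kinases, Aurka, Plk1 and Nek2 all had higher values in each Nc1Bio library than in any BirA library. Aurora A, the product of Aurka, matures centrosomes and helps to build the spindle poles. Aurka (chromosome 2, 172356190 to 172370535, minus strand) had 97.7, 107 and 95.1 CPM in BirA and 125, 117 and 139 CPM in Nc1Bio. The log2 fold change was 0.35 ± 0.10 (SE), and edgeR gave an adjusted p of 0.291. The lowest library for Aurka was BirA replicate 3. Plk1, which acts from mitotic entry to cytokinesis, had a log2 fold change of 0.19 ± 0.09 (SE). Nek2, a centrosomal kinase, had 0.27 ± 0.13 (SE), and without BirA replicate 1 the log2 fold change was 0.13.

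The 5 spindle checkpoint genes had log2 fold changes with a median of 0.16, and none had an unadjusted p under 0.05. The values ran from 0.13 for Mad2l1, which encodes the inhibitor of CDC20 at unattached kinetochores, to 0.26 for Ttk, the kinase that starts the checkpoint signal. Ttk had 30.8, 33.3 and 33.9 CPM in BirA and 37.6, 37.9 and 42.3 CPM in Nc1Bio. Bub3 also separated the groups, but only 30.2% of the reads assigned to it were unique, and its value is uncertain for that reason. With total gene reads its log2 fold change was 0.21, beside 0.19 with unique ones. Bub1 (0.16) and Bub1b (0.15) did not separate the groups.

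The chromosomal passenger complex, which corrects faulty attachments through Aurora B, had a median of 0.20 over 4 genes. The values of its subunits ran from 0.07 to 0.29. Cdca8 (borealin) had 112, 116 and 129 CPM in BirA and 148, 138 and 149 CPM in Nc1Bio, a log2 fold change of 0.29 (SE 0.09) and an adjusted p of 0.330 by edgeR. Birc5 (survivin) had 126, 143 and 158 CPM in BirA and 171, 168 and 163 CPM in Nc1Bio, also without overlap, with a log2 fold change of 0.23 that was 0.15 without BirA replicate 1. The kinase gene Aurkb (0.17) and the scaffold gene Incenp (0.07) overlapped between the groups.

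At the centromere and kinetochore, 1 of 7 genes had an unadjusted p under 0.05, and the median log2 fold change was 0.16. That gene was Cenpa, whose product replaces histone H3 in centromeric nucleosomes. It had 83.9, 85.0 and 109 CPM in BirA and 122, 124 and 118 CPM in Nc1Bio, with a log2 fold change of 0.39 (SE 0.12) and an adjusted p of 0.303 by edgeR. The groups did not overlap, and leaving out any library kept the log2 fold change at 0.32 or above. The 4 genes of the NDC80 complex, the main microtubule attachment site, lay between 0.12 (Nuf2) and 0.21 (Spc24), and all 4 overlapped between the groups.

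Cenpe and Cenpf, which encode very large coiled-coil proteins of the outer kinetochore, had their highest level in Nc1Bio replicate 1. Cenpe had the largest log2 fold change of the list, 0.45, but with an SE of 0.21, and without that library it was 0.26. Its values were 20.1, 30.2 and 23.3 CPM in BirA and 42.0, 30.8 and 27.8 CPM in Nc1Bio. Cenpf had 42.6, 50.5 and 48.2 CPM in BirA and 67.0, 43.4 and 47.3 CPM in Nc1Bio. Without Nc1Bio replicate 1, the log2 fold change of Cenpf was -0.05. Kif4 and Mki67 also had their highest value in that library, with 69.5 and 245 CPM. Nc1Bio replicate 1 was the highest library for 14 of the 46 members, and Nc1Bio replicate 3 for 19.

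The 5 spindle and chromosome kinesins had the lowest median log2 fold change of the 10 roles, 0.11, and the groups overlapped in all 5 genes. Kif11, the motor that pushes the spindle poles apart, was at 0.19 ± 0.11 (SE), and Kif22, a chromosome arm motor, at 0.05 ± 0.13 (SE). The microtubule depolymerase gene Kif2c (0.08), Kif18a (0.11), whose product damps chromosome oscillations at metaphase, and the chromokinesin gene Kif4 (0.13) lay between them. For Kif22, 70.0% of the reads were unique, and with total gene reads its log2 fold change was 0.13. Of the spindle-associated proteins, Hmmr, which encodes a spindle pole protein, separated the groups (0.22 ± 0.10, SE), while Tpx2, the activator of Aurora A (0.15), and Ckap2l (0.26) did not. Ckap2 had 33.2, 37.0 and 41.1 CPM in BirA and 41.2, 44.98 and 27.1 CPM in Nc1Bio. Its fold change was the smallest of the list, and its lowest and its highest value were both in Nc1Bio.

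The 6 cytokinesis genes ran from 0.04 to 0.42, with a median log2 fold change of 0.27. Racgap1 and Kif23 encode the subunits of centralspindlin, the complex that recruits ECT2 to the midzone. Racgap1 (chromosome 15, 99620496 to 99651656, minus strand) had 137, 176 and 177 CPM in BirA and 212, 212 and 231 CPM in Nc1Bio. Its fold change on the log2 scale was 0.42 ± 0.12 (SE), and edgeR gave an adjusted p of 0.281. Kif23 was at 0.04 ± 0.12 (SE), with 71.5, 91.8 and 91.3 CPM in BirA and 87.3, 91.0 and 84.2 CPM in Nc1Bio. The difference between these partners was not tested. Kif20a, a kinesin of the central spindle, had 67.3, 85.3 and 88.1 CPM in BirA and 91.4, 101 and 109 CPM in Nc1Bio (log2 fold change 0.33 ± 0.13, SE; edgeR adjusted p = 0.388). It overlaps Cdc23, and 74.9% of its reads were unique. Anln, which encodes the ring scaffold anillin (0.21), and Ect2, which encodes the activator of RhoA (0.19), overlapped between groups. So did Prc1, which encodes the bundler of midzone microtubules (0.38), for which only 27.2% of the reads were unique. With total gene reads in place of unique ones, its log2 fold change was 0.24.

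Top2a encodes the topoisomerase that untangles sister chromatids and was the member with the most reads. It had 795, 947 and 1036 CPM in BirA and 1119, 1050 and 1108 CPM in Nc1Bio, without overlap, with a log2 fold change of 0.24 (SE 0.11) and an adjusted p of 0.455 by edgeR. Without BirA replicate 1 its log2 fold change was 0.14. Mki67, which encodes the proliferation marker Ki-67 that coats mitotic chromosomes, had 132, 169 and 175 CPM in BirA and 245, 186 and 171 CPM in Nc1Bio. Its groups overlapped, and its log2 fold change was 0.34, and 0.18 without Nc1Bio replicate 1. Per kilobase of annotated exon, the highest levels were those of Ccnb2 (112 CPM per kb), Top2a (111) and Cdc20 (100), and the lowest those of Cenpf (3.21), Cenpe (3.31), Kif18a (3.46) and Prc1 (3.79). The exon length is the union over annotated transcripts, so long minor exons lower these levels, and the low value of Prc1 comes with its few unique reads.

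Reads in introns of the members were few, and their mean was higher in Nc1Bio as well. Their sum was 24.4, 30.9 and 22.0 CPM in BirA and 35.8, 34.3 and 29.5 CPM in Nc1Bio (25.8 ± 4.61 and 33.2 ± 3.32, SD, n = 3). The groups overlapped, and each value rested on 317 to 483 reads, or 0.350% to 0.527% of the reads of the members, beside 1.58% to 2.15% over all genes. The log2 ratio of the intron sums was 0.36, beside 0.24 for all their reads, of which the intron reads are part.

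The other mitosis genes, 56 in number and all tested, were close to the members in size: 53 had a fold change above 0, the median was 0.25, and 12 had an unadjusted p under 0.05, all higher. Pimreg (0.43), the checkpoint gene Mad1l1 (0.44) and Sgo1 (0.38), which encodes a shugoshin that protects centromeric cohesin, had the lowest p-values among them. Of 19 APC/C subunits and regulators 18 had a fold change above 0 (median 0.15), with the lowest p-values in the subunit gene Anapc5 (0.36), the co-activator gene Fzr1 (0.21) and the inhibitor gene Fbxo5 (0.27). Of 19 condensin and cohesin genes 16 did (median 0.13), with none at an unadjusted p under 0.05. Of 47 DNA replication genes, 46 had a fold change above 0 (median 0.26), 21 had an unadjusted p under 0.05, and Uhrf1, which helps to copy DNA methylation at the fork, was called by DESeq2 (log2 fold change 0.41; adjusted p = 0.0161). No gene of any of the 6 lists was called by edgeR. Over all tested genes, 49.6% had a fold change above 0, and 4.31% were higher at an unadjusted edgeR p under 0.05. All Nc1Bio libraries lay above all BirA libraries for 28 DNA replication genes and 18 other mitosis genes, against 8.45% of all tested genes. They all lay below for 0 DNA replication genes and 1 of the other mitosis genes, against 9.98%.

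Genes that regulate the programme went both ways. Of 24 regulators, 19 had a fold change above 0 (median 0.18). At an unadjusted edgeR p under 0.05, 5 regulators were higher and 1, Rbl2, was lower. Rbl2, which encodes the pocket protein p130 of the DREAM repressor, had 60.8, 56.5 and 68.7 CPM in BirA and 31.5, 34.3 and 37.3 CPM in Nc1Bio, with no overlap and a log2 fold change of -0.85 ± 0.12 (SE). It missed the threshold in edgeR (adjusted p = 0.106) and fell in DESeq2 (adjusted p = 6.72e-05). Of the 12224 genes tested by edgeR, DESeq2 called 275 lower and 38 higher at an adjusted p under 0.05. E2f2, a transcription factor of the E2F family, had 184, 210 and 193 CPM in BirA and 262, 253 and 281 CPM in Nc1Bio (log2 fold change 0.44 ± 0.09, SE), with an adjusted p of 0.170 by edgeR and 0.00941 by DESeq2. Among the 13 tested G1 cyclins, CDKs and inhibitors, 8 had a fold change above 0. Ccnd2 (cyclin D2, which acts before S phase) went the other way, with 277, 253 and 235 CPM in BirA and 179, 183 and 167 CPM in Nc1Bio, a log2 fold change of -0.53 ± 0.10 (SE), and an adjusted p of 0.124 by edgeR and 0.00091 by DESeq2.

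**Figure D5:**
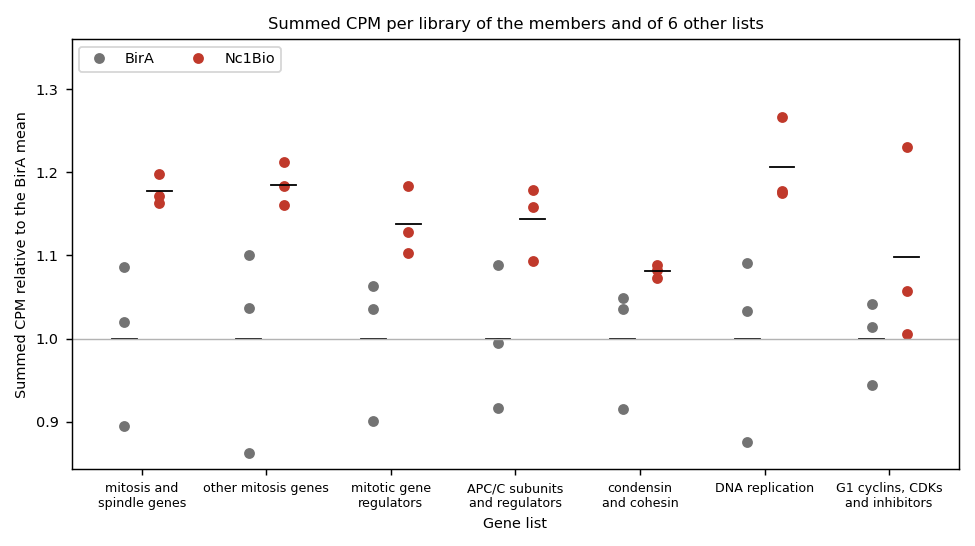
Summed CPM of the members and of 6 other lists in each library (points), divided by the BirA mean of the list, with the group means as bars; the vertical axis does not start at 0. The 3 Nc1Bio points lie above the 3 BirA points in every list apart from the G1 genes, and BirA replicate 1 is the lowest point of each list.

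Members with CHR letters in their promoter window had a median log2 fold change of 0.22 over 31 genes, and those without had 0.23 over 8. With CCAAT letters the median was 0.24 over 31 genes and without them 0.13 over 8. Among tested genes outside the list, 640 held both motifs, with 54.7% of fold changes above 0 and a median of 0.03 on the log2 scale. The 4606 with neither had a median of -0.01 and 48.9% above 0. Only the members were taken out of these sets, so genes of the other mitosis and DNA replication lists can be among them.

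Markers of other cells moved with the groups and are given beside the result. The 10 T lineage markers summed to 5283 to 5814 CPM in BirA and 5581 to 6217 CPM in Nc1Bio, with 6 of 10 fold changes above 0 and 4 below (counts of markers here give the sign of the fold change, not calls). The 9 markers of the DN3 stage and the pre-TCR summed to 1113 to 1464 CPM in BirA and 1413 to 1753 CPM in Nc1Bio. Of their fold changes, 8 of 9 were above 0, and the groups overlapped. The largest parts of these sums were Il2ra (330 to 772 CPM over the libraries) and Notch1 (422 to 659 CPM). Ptcra (9.46 to 34.3 CPM), Rag1 (2.42 to 9.33 CPM) and Rag2 (1.88 to 4.48 CPM) were low in every library. Markers of γδ thymocytes went the opposite way, from 805 to 1107 CPM in BirA to 319 to 528 CPM in Nc1Bio, with 7 of 7 tested markers lower and Il17a at 0 in part of the libraries. Markers of mature T cells (961 to 1190.2 and 691 to 739 CPM, 7 of 7 lower), of NK and innate lymphoid cells (741 to 936 and 351 to 502 CPM, 7 of 7 lower) and of B cells (1644 to 2027 and 291 to 1564 CPM, 7 of 7 lower) were also lower in Nc1Bio. The sums of the γδ, mature T, NK and B cell markers did not overlap between the groups.

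Macrophage and dendritic cell markers summed to 85.9 to 247 CPM in BirA and 55.8 to 114 CPM in Nc1Bio, with 8 of 8 tested markers lower. Erythroid markers were at 20307 to 66231 and 17802 to 97633 CPM (6 of 7 higher), granulocyte markers at 464 to 9053 and 379 to 5503 CPM (7 of 9 lower). Markers of CD4+, CD8+ and double-positive cells summed to 64.3 to 94.95 and 55.3 to 80.4 CPM (4 of 5 lower). Thymic epithelial markers stayed under 50 CPM, with Krt5, Krt8, Foxn1, Psmb11 and Cldn3 at 0 in some libraries. Cd4, a marker of the depleted cells, was at 0.834 to 6.85 CPM and Cd8a at 4.25 to 14.004 CPM. The part of these shifts in the higher levels of mitotic genes was not tested. Divided by the sum of the T lineage markers, the sum of the members was 0.981, 1.11 and 1.08 in BirA and 1.09, 1.19 and 1.24 in Nc1Bio. On that scale the log2 ratio was 0.15, and the groups overlapped.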

How the data were processed

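Poly(A) RNA-seq libraries of DN thymocytes (3 BirA, 3 Nc1Bio) were sequenced as single reads of 59 bases, of which the first 10 were trimmed. The methods of the study name cutadapt, STAR with GRCm38, featureCounts and DESeq2. The deposited values used here are read counts per gene, split into unique and total reads and into gene, exon, intron and junction classes. Their layout is not one that featureCounts writes. The sources used here name neither the program that wrote them nor its use of strand, so overlapping genes are uncertain. The RPKM and TPM columns made by the authors were not used.

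Unique gene reads (11845952 to 15393763 per library) entered the fit for the 12224 of 41457 genes kept by filterByExpr, after TMM normalisation, with the quasi-likelihood test of edgeR 4.0.16 in R 4.3.3, with genotype as the only term and Benjamini-Hochberg adjustment over all genes tested. Calls were made at 0.05. CPM use TMM-scaled library sizes. The steps were tested on simulated data. Alternatives were RLE size factors, library totals alone, no filter, 1 CPM in 3 libraries, limma-voom (limma 3.58.1), DESeq2 1.42.0, the other count columns, a replicate block, and each library left out. No pair of libraries agreed within sampling noise: the smallest chi-square over its degrees of freedom was 25.97. Reads are not molecules, so counts carry amplification error as well as sampling error.

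The members and lists were chosen with earlier results of these data known, so no list was tested as a whole. Values in every library were to be given for members with an unadjusted p under 0.05, for the most and the least abundant per exon length, and for Nfatc1, and at most 3 genes of lowest p were to be named from each other list. The other members given in full were chosen after their values were seen. The ratio to T lineage markers was added after the data were seen.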

Additional observations from a re-analysis of the deposited data

How the results depend on the processing

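No member was called by edgeR under any alternative, and 1 member, Cdc20, was called by DESeq2. All 46 fold changes stayed above 0 with RLE size factors, library totals, no filter, the 1 CPM filter, DESeq2, the other count columns and the replicate block. The median log2 fold change was 0.18 with library totals, under which the median over all genes was -0.03, and it was 0.14 to 0.27 with 1 library left out and 0.13 without both BirA replicate 1 and Nc1Bio replicate 3. Members with an unadjusted p under 0.05 numbered 6 with library totals (1.82% of all genes), 8 to 18 with 1 library left out, and 5 with both of those libraries left out (2.78% of all genes). Under that last setting 7 members turned: Bub1 (-0.0197), Pttg1 (-0.0156), Aurkb (-0.0477), Nuf2 (-0.00011), Spc25 (-0.0521), Kif2c (-0.0025) and Kif23 (-0.0399). With 1 library left out, the ranges that crossed 0 were those of Pttg1 (-0.0442 to 0.60), Cenpf (-0.0494 to 0.28), Spc25 (-0.0117 to 0.38), Kif4 (-0.0033 to 0.27), Kif22 (-0.0654 to 0.15), Ckap2 (-0.12 to 0.22) and Kif23 (-0.0654 to 0.11). Limma-voom gave Ckap2 -0.0051. The causes were not tested. Over all genes, edgeR called 1, and 19 with library totals, 156 with no filter and 326 with DESeq2. It called 0 to 2 with 1 library left out, and Nfatc1 was not called in 4 of those 6 fits. In the 150 bases before the start, CHR letters were in 14 of 39 members (11.2% of all genes) and both motifs in 13 (2.85%), a window that leaves out the bases after the start.

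Replicate numbers are shared between the groups, but same-numbered libraries did not deviate together in every pair (correlations across genes of 0.34, 0.11 and -0.16). With the replicate block, 13 members had an unadjusted p under 0.05 (4.41% of all genes), 0 were called, and the median log2 fold change was 0.22. Changes of the size seen in the members (0.03 to 0.45 on the log2 scale) were not simulated, so whether 3 libraries a group can show them for single genes was not tested.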
